A study of Rattus with 4 samples.

Results

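Khdc4 and Spaca6 are 2 protein-coding genes of the rat whose loci carry small RNA genes inside them. They were picked by symbol from 13731 listed genes because their RNA was far more abundant in NONO immunoprecipitates than in input, so the contrast between these libraries chose them and their own values are given as a description without a test. Khdc4 (NCBI gene 361980) lies on chromosome 2 and Spaca6 (NCBI gene 688452) on chromosome 1.

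The 4 libraries came from RNA immunoprecipitation sequencing, in which an antibody recovers a protein together with its RNA and this RNA is sequenced beside the starting material. The 2 NONO IP libraries were made with an anti-NONO antibody and the 2 Input libraries without antibody; no library with a control antibody was analysed here. The labels also give NONO siRNA for the NONO IP cells and an empty vector for the Input cells, so precipitation and knockdown cannot be told apart. H9C2, a rat heart myoblast line, stands in the titles, whereas the growth protocol names a commercial rat cardiac fibroblast line. Whether the replicates are separate cultures is not stated, and p-values therefore reflect only how much these libraries vary, which may be technical.

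Reads on genes summed to 279410 and 264059 in NONO IP and to 249548 and 238776 in Input, a shallow depth. A gene with 3 reads in a library stood at 10.2 to 15.9 CPM, the read count relative to the scaled size of the library. All 9 fibroblast markers sought were listed, with 39711 reads in NONO IP and 38075 in Input, mostly of collagen genes. All 5 smooth muscle markers were listed, with 992 reads in NONO IP and 1606 in Input, and 8 of 9 cardiomyocyte markers, with 155 in NONO IP and 107 in Input. The skeletal myoblast markers Myod1, Myog, Myf5, Myf6, Pax7 and Chrna1 were not among the listed genes, and Des had 6 reads in NONO IP and 15 in Input. None of 8 markers of testis germ cells, the cells in which Spaca6 is best known, was listed.

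Many small RNAs of animals have no promoter of their own. They are carried in introns of other genes, called host genes, and are cut out of the host transcript, either by trimming of the excised intron, as for most small nucleolar RNAs (snoRNAs, guides of ribosomal RNA modification) and small Cajal body RNAs (scaRNAs, guides of spliceosomal RNA modification), or by the microprocessor complex, as for microRNAs (miRNAs, which silence messenger RNAs). KHDC4, also called BLOM7, is a splicing factor with KH domains, a fold that binds single-stranded RNA, and human KHDC4 is known to carry a scaRNA and a snoRNA. SPACA6 is a membrane protein of sperm that is needed for fusion with the egg, and its locus in mammals carries the cluster of miR-99b, let-7e and miR-125a, which is expressed in many tissues that make no sperm. NONO is an RNA-binding nuclear protein of paraspeckles that is also known to bind primary miRNA transcripts.

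Both genes were rare in Input and abundant in NONO IP. Khdc4 had 328 and 282 reads in NONO IP, against 3 and 3 reads in Input. Spaca6 had 396 and 370 reads in NONO IP, against 14 and 13 reads in Input. The groups did not overlap for either gene, from which nothing is read: both NONO IP values exceeded both Input values in scaled CPM at 40.6% of the genes tested. The share of all gene reads held by Khdc4 was 0.112% in NONO IP and 0.00123% in Input, and that of Spaca6 was 0.141% in NONO IP and 0.00553% in Input.

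With libraries scaled by the trimmed mean of M-values (TMM), Khdc4 reached 1059 ± 73.0 CPM in NONO IP and 15.7 ± 0.298 CPM in Input (SD, n = 2 each). Spaca6 reached 1331 ± 13.5 CPM in NONO IP and 70.5 ± 2.35 CPM in Input (SD, n = 2 each). The ratio of the summed reads, divided by that of the TMM-scaled library sizes (1.50), was 67.7 for Khdc4. Its exact conditional 95% interval was 30.9 to 185. The same scaled ratio was 18.9 for Spaca6, with an interval of 12.9 to 28.9. These intervals cover counting error only, and that of Khdc4 is wide because it rests on 6 reads of Input. Taking each NONO IP library against each Input library, the TMM-scaled ratio lay between 63.5 and 71.9 for Khdc4 and between 18.3 and 19.5 for Spaca6.

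Among 2920 genes tested with edgeR's quasi-likelihood test, 56.7% were called at an adjusted p under 0.05, made up of 29.8% higher in NONO IP and 26.9% lower (each a share of the genes tested). Both genes were called higher; since they were chosen for this difference, nothing is read from that. The fitted log2 fold change was 6.03 for Khdc4 and 4.23 for Spaca6. Khdc4 passed the filter on low counts through its NONO IP libraries alone, whereas Spaca6 passed it in all 4 libraries.

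Khdc4 and the scaRNA 13 gene LOC120093414 both had a log2 fold change of 6.03 (SE 0.25 each), at the top of the 456 tested genes with a mean of at least 50 reads per library and differing by far less than this SE, and Spaca6 stood at rank 9 among these and at rank 3 among the 422 of them that code for protein. Khdc4 and Spaca6 were chosen for this difference, so these ranks were largely fixed beforehand. Both also reached the mean of 50 reads through their NONO IP reads. Over all tested genes 27 had a larger fitted value than Khdc4. Of these, 26 had no Input read and 1 had a single one, so their fitted values depend on the prior count, and none had a mean above 46.5 reads per library. In the amount recovered, the 2 genes lay further down, at ranks 55 (Khdc4) and 41 (Spaca6) among the same 456 genes by TMM-scaled level in NONO IP.

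Genes with as few Input reads gave a scale for these values. Khdc4 and Spaca6 were chosen for many NONO IP reads against few in Input. Their place at the top of each range was therefore largely fixed beforehand. Among 4348 listed genes with 3 to 12 reads over the Input libraries, the median was 7 reads over the NONO IP libraries and the next highest after the 610 of Khdc4 was the snoRNA gene LOC120102039 (SNORA17) with 372. Among 1123 listed genes with 20 to 40 Input reads, the median was 31 NONO IP reads, and the next highest after the 766 of Spaca6 was Rai1, a coding gene, with 528.

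**Figure D1:**
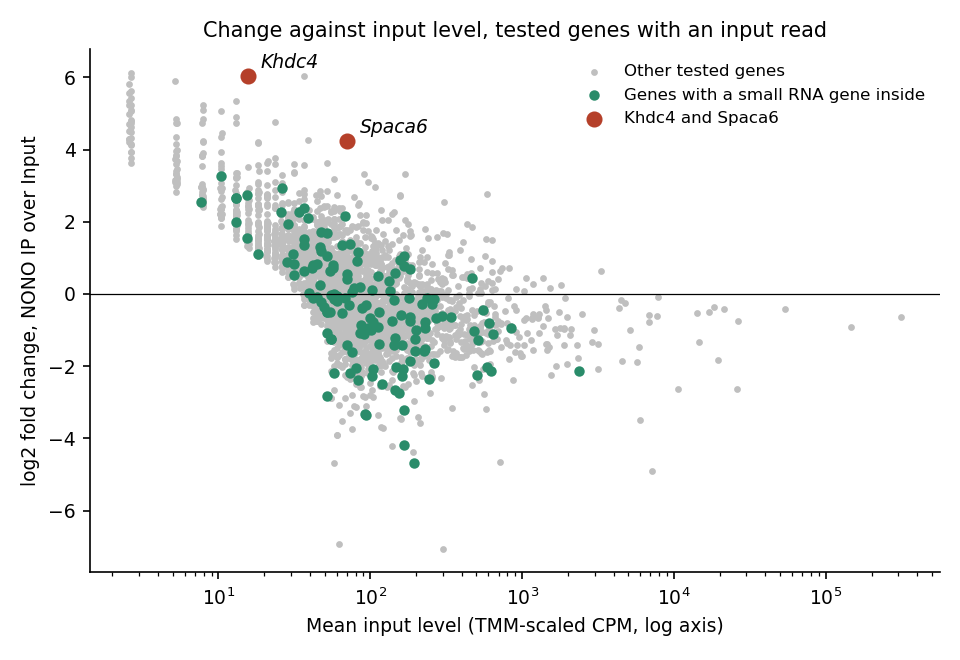
Log2 fold change of NONO IP over Input against the mean Input level (TMM-scaled CPM, log axis) for tested genes with at least 1 Input read; the lower left is empty because such genes do not pass the count filter. Khdc4 (6.03) and Spaca6 (4.23) were chosen for this difference. They lie above the tested genes that contain a small RNA gene, whose highest value is 3.26.

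On the deposited RPKM scale, which allows genes to be compared per length, Khdc4 had 81.8 and 77.5 RPKM in NONO IP, against 1.83 and 1.9 RPKM in Input. Spaca6 had 28.5 and 29.4 RPKM in NONO IP, against 2.47 and 2.38 RPKM in Input. Per length the order of the 2 genes thus differed between the groups. The RPKM of Khdc4 was 2.87 and 2.64 times that of Spaca6 in NONO IP replicates 1 and 2, against 0.741 and 0.798 times in Input replicates 1 and 2. In Input this rests on 3 Khdc4 reads per library, so the order there is not separated from counting error.

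The ratio of NONO IP to Input was smaller in RPKM, between 40.8 and 44.7 for Khdc4 and between 11.5 and 12.3 for Spaca6. The mean library total behind the RPKM values, recovered from the deposited tables, was 2.38 times as large in NONO IP as in Input. Reads counted on listed genes differed far less, with 279410 and 264059 in NONO IP against 249548 and 238776 in Input. Listed genes thus held a smaller share of the total in NONO IP than in Input. The part of this in either gene's ratio was not tested.

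The same 2 tables give the length on which each gene was counted. For 36 small RNA genes with at least 30 reads, reads divided by RPKM was proportional to the annotated gene length to within 1%, which sets the scale in bases. The length counted was 4287 bases for Khdc4, which is 15.0% of its span of 28511 bases in the RefSeq table of the GRCr8 assembly. It was 14846 bases for Spaca6, or 77.3% of its span of 19215 bases. The files used another build, mRatBN7.2, so these shares join a length from one annotation with a span from another.

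Among 2687 tested protein-coding genes with a span, the median counted length was 4917 bases and the median share of the span 12.2%. Khdc4 lay near the middle, at percentile 41.8 of counted length and 58.7 of the share. Spaca6 was at percentile 94.9 of counted length and 97.1 of the share, and RefSeq lists 32 transcripts of it against 6 of Khdc4. For Khdc4 the counted part was thus close in size to an ordinary spliced transcript, whereas for Spaca6 most of the locus was counted. Where in either locus the reads lay was not analysed here.

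**Figure D2:**
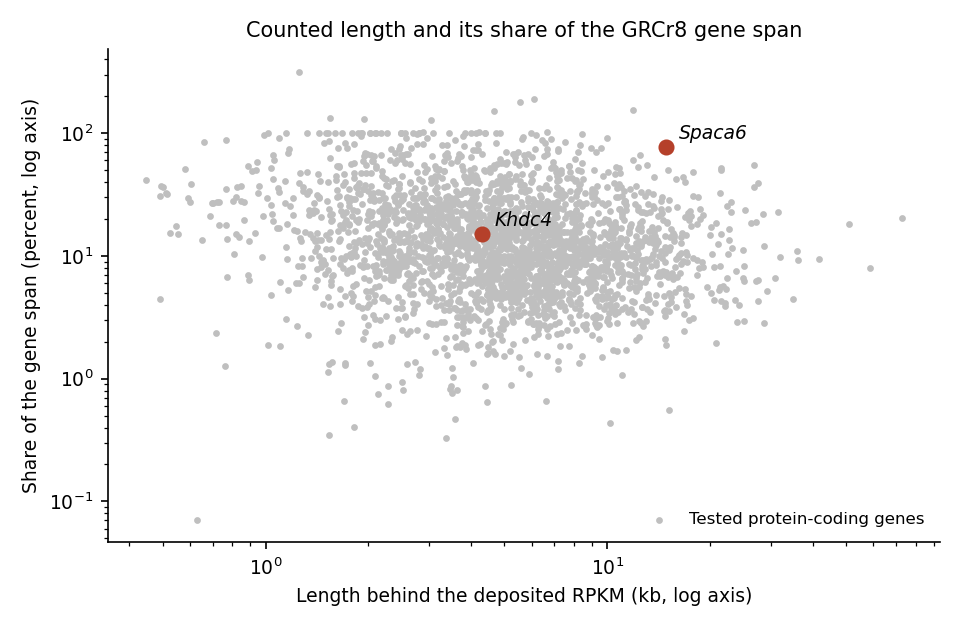
Length behind the deposited RPKM (kilobases, log axis) against its share of the GRCr8 gene span (percent, log axis) for 2687 tested protein-coding genes; values above 100% arise because the 2 annotations differ. Khdc4 (15.0%) lies within the cloud and Spaca6 (77.3%) near its upper right edge.

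Across genes, calls were found in both directions at every counted share. Of all tested protein-coding genes, 27.3% were called higher and 27.7% lower by edgeR. Of 97 with over 70% of the span counted, 17 were higher (17.5%) and 23 lower (median log2 fold change 0.04). Of 1127 genes with under 10% counted, 367 were higher (32.6%) and 255 lower (median 0.19). Between these, the medians were −0.10 for 757 genes with 10 to 20% counted, −0.42 for 509 genes with 20 to 40% and −0.33 for 197 genes with 40 to 70%. By counted length, the median was −0.69 for 664 genes under 3 kilobases (84 higher, 304 lower) and −0.07 for 984 genes of 3 to 6 kilobases, the range of Khdc4 (222 higher, 232 lower). It was 0.21 for 637 genes of 6 to 10 kilobases (208 higher, 140 lower) and 0.73 for 402 genes over 10 kilobases, the range of Spaca6 (193 higher, 70 lower). The part of length in the value of either gene was not tested. Genes are not independent, and these values only describe the table.

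In the GRCr8 table, Khdc4 contains LOC134478801, a noncoding RNA gene of 128 bases with no further name, and a U6 snRNA gene of 110 bases. Neither is among the listed genes, so no value can be set beside Khdc4. A scaRNA 4 gene listed under LOC120102018, on chromosome 3 and thus outside Khdc4, had 1 and 0 reads in NONO IP and none in Input. Of the SNORA42/SNORA80 family, which human KHDC4 carries, 2 copies were listed. LOC120093421 on chromosome 6 had 2 and 2 reads in NONO IP and none in Input, and LOC120096111 on chromosome 12 had 80 and 58 reads in NONO IP, against 1 and 2 reads in Input. The copy on chromosome 12 lies inside Rpl6, a ribosomal protein gene with 6 and 7 reads in NONO IP, against 32 and 24 reads in Input.

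Spaca6 contains 4 miRNA genes in the GRCr8 table, Mir99b, Mirlet7e, Mir125a and Mir3596c, the last of which overlaps Mirlet7e. Mir3596c was the only one listed, with 1 and 3 reads in NONO IP and 0 and 0 reads in Input. These counts are at or near the floor of 3 reads, and no fold is given. Whether reads of the other 3 were counted on Spaca6, whose counted part covers most of the locus, was not tested.

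Relatives of these miRNAs at other loci were hardly counted either. Mirlet7b had 5 and 6 reads in NONO IP, against 1 and 1 reads in Input. Mir99a and Mirlet7a-2 each had 1 and 1 reads in NONO IP and none in Input, while Mirlet7c2 had none in NONO IP and 1 and 1 in Input. Over all 42 listed miRNA genes there were 263 reads in NONO IP and 22 in Input, and 34 genes had more NONO IP than Input reads while 7 had more Input reads. Spaca6 alone held 766 NONO IP reads, more than all listed miRNA genes together. These reads are not scaled by length. Spaca6 was counted on 14846 bases, whereas Mir3596c, for example, has 117 bases.

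The listed genes beside Khdc4 were not called. Arhgef2 had 96 and 92 reads in NONO IP, against 50 and 46 reads in Input (log2 fold change 0.38, SE 0.18, edgeR adjusted p = 0.0761). In RPKM it was lower in NONO IP, at 16.6 and 17.6 against 21.2 and 20.2 in Input, so its direction depended on scaling. Rit1, a Ras-like GTPase gene, had 1 and 6 reads in NONO IP and 5 and 2 in Input. Syt11, a synaptotagmin gene, had 10 and 7 reads in NONO IP and 8 and 5 in Input, and Gon4l had 7 and 8 in NONO IP and 9 and 5 in Input. The last 3 were below the count filter. None of the 3 genes on either side of Spaca6 was listed, Has1 and Fpr1 among them.

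**Figure D3:**
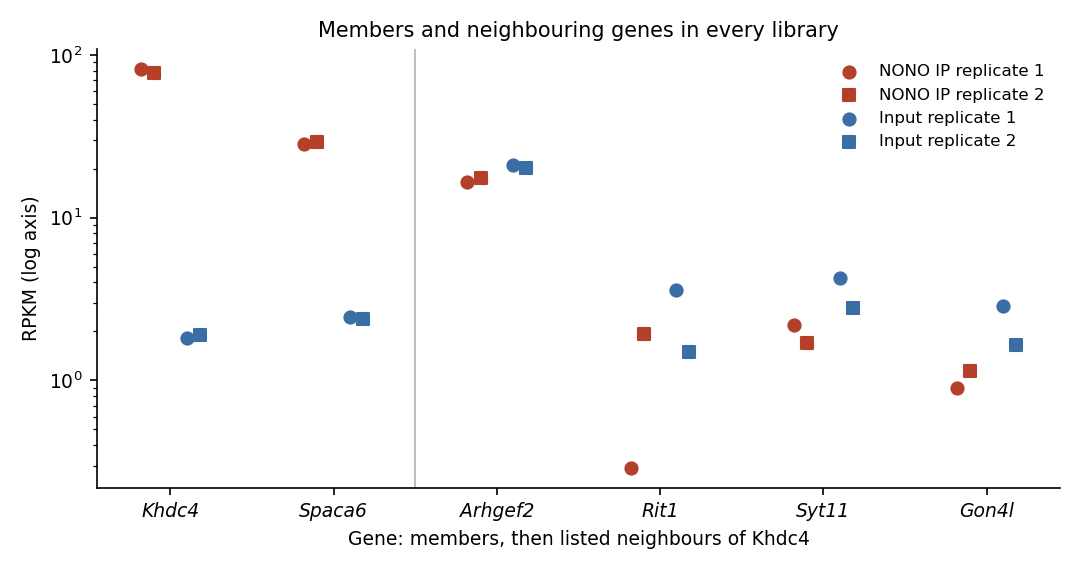
Level in every library (RPKM, log axis; circles replicate 1, squares replicate 2) of Khdc4, Spaca6 and the 4 listed neighbours of Khdc4. Khdc4 has 81.8 and 77.5 RPKM in NONO IP against 1.83 and 1.9 in Input, while Arhgef2 has 16.6 and 17.6 in NONO IP against 21.2 and 20.2 in Input.

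Other genes with a small RNA gene inside were called in both directions, with a balance that depended on scaling, as did that of all tested genes. By position in GRCr8, 597 other protein-coding genes contain a snoRNA, scaRNA-type or miRNA gene. Of these, 457 were listed and 140 were tested, and 32 were higher, 56 lower and 52 not called (22.9% higher, against 29.8% of all tested genes, edgeR; 26.9% of all tested genes were lower). With library totals, 46 of the 140 hosts were higher and 37 lower (32.9% and 26.4%, against 41.7% and 15.2% of all tested genes). On log2(RPKM + 1), 8 hosts were higher and 81 lower of 300 tested there (2.7% and 27.0%, against 5.2% and 18.8%). On log2(RPKM + 0.1), 7 were higher and 59 lower (2.3% and 19.7%, against 4.6% and 15.1%). The median log2 fold change of the 140 hosts was −0.30 with TMM, against 0.02 for all tested genes. The 18 ribosomal protein genes among them were all lower; the other 122 had 32 higher and 38 lower members and a median of −0.12. Khdc4 and Spaca6 were chosen for a large difference, so their place above these hosts was largely fixed beforehand. None of the 140 had a log2 fold change as large as that of Spaca6 with TMM and this filter. Hosts with larger values appeared under other settings, and the highest in each were genes with few reads. Tex14, with 6 and 10 reads in NONO IP and none in Input, had the highest value without the count filter (5.85, against 4.45 for Spaca6) and without Input replicate 2 (5.85, against 4.14). Exoc6b, with 16 and 12 reads in NONO IP and 3 and 0 in Input, reached 6.64 without Input replicate 1, above both Spaca6 (4.23) and Khdc4 (5.99). Hs3st4, with 7 and 3 reads in NONO IP and none in Input, reached 4.30 on log2(RPKM + 0.1), against 3.52 for Spaca6. Where Input has no read, such a value depends on the prior count or pseudocount and is no bound.

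Among hosts by position that were higher, Kansl1, a subunit of a histone acetyltransferase complex, had 98 and 79 reads in NONO IP, against 12 and 14 reads in Input (log2 fold change 2.17, SE 0.26, edgeR adjusted p = 2.09e-06). Xkr6, which contains a miRNA gene, had 64 and 53 reads in NONO IP, against 6 and 4 reads in Input (2.94, SE 0.36, edgeR adjusted p = 2.72e-06). Gabpb1, a subunit of an ETS-type transcription factor, had 38 and 22 reads in NONO IP, against 2 and 2 reads in Input (3.26, SE 0.56, edgeR adjusted p = 9.65e-05). The groups did not overlap for these 3 genes, which were taken from the called genes with the smallest p, and they did not at 40.6% of all tested genes in this direction. Kpna4, an importin gene that contains a scaRNA-type gene, rose by 1.72 (SE 0.35, edgeR adjusted p = 0.000478), a call that ended on the RPKM scales (adjusted p = 0.135 and 0.142).

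Among hosts by position that were lower, Hspa8, a chaperone gene known for its snoRNAs, had 3 and 1 reads in NONO IP, against 37 and 37 reads in Input (log2 fold change −4.70, SE 0.45, edgeR adjusted p = 1.55e-07). Eef2, a translation elongation factor gene, had 151 and 161 reads in NONO IP, against 476 and 435 reads in Input (−2.13, SE 0.11, edgeR adjusted p = 1.77e-11). Plxnb2, a semaphorin receptor gene that contains a miRNA gene, changed by −2.03 (SE 0.20, edgeR adjusted p = 2.1e-07). By kind of small RNA, 20 of 96 tested snoRNA hosts were higher and 44 lower; 17 of the 96 are ribosomal protein genes, all lower, and the rest had 20 higher and 27 lower. Of 43 miRNA hosts 13 were higher and 12 lower, or 30.2% and 27.9%, near the 29.8% and 26.9% of all tested genes. Of 5 scaRNA-type hosts 1 was higher and 1 lower. These kinds follow RefSeq labels and are not clean classes. Snora58, Snora19 and Scarna3 are labelled miRNA and Scarna10 snoRNA, and scaRNA-type stands for the label ncRNA.

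Lists of host genes known in mammals were counted as well. Of 32 tested protein-coding hosts of snoRNAs or scaRNAs, 2 were higher and 24 lower by edgeR, with a median log2 fold change of −2.03. These were 6.25% and 75% of the list, against 29.8% and 26.9% of all tested genes. The 32 hosts include 13 ribosomal protein genes, all lower, such as Rpl3 (−2.36, SE 0.29) and Rpsa (−2.13, SE 0.19). The other 19 had 2 higher and 11 lower members and a median of −0.94. The 2 higher were Rnf149, a ubiquitin ligase gene (1.06, SE 0.20), and Naa15, a subunit of an acetyltransferase (1.32, SE 0.47). The call of Rnf149 ended on the RPKM scales (adjusted p = 0.191 and 0.169), and that of Naa15 also by DESeq2 (adjusted p = 0.209), without NONO IP replicate 2 (0.115) and without Input replicate 1 (0.25).

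Of 16 tested protein-coding hosts of miRNAs, 4 were higher and 7 lower by edgeR (median −0.56), or 25.0% and 43.8%, against 29.8% and 26.9% of all tested genes. The higher ones were Mib1 (0.94, SE 0.22), Ctdsp2 (1.03, SE 0.26), Lpp (0.69, SE 0.20) and Igf2 (1.10, SE 0.46), and all 4 calls ended on both RPKM scales. Those of Lpp and Igf2 ended also by DESeq2 and without Input replicate 2 (adjusted p = 0.167 for Lpp and 0.336 for Igf2), and that of Igf2 without NONO IP replicate 1 (0.345). Huwe1, a ubiquitin ligase gene, changed by −1.58 (SE 0.27) and Myh7, a cardiac myosin heavy chain gene, by −2.82 (SE 0.55). None of the 26 noncoding snoRNA hosts was tested, and 4 of them were listed.

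A small RNA and its host were both listed in 76 pairs, and 23 of them, over 21 hosts, had at least 10 reads of the small RNA. All 23 small RNA genes had more scaled reads in NONO IP, at a median log2 ratio of 3.35 with 0.5 reads added, while 6 of the host entries did, at a median of −1.12. The small RNA lay above its host in 21 pairs, with Tex14 and Brd3 as the exceptions. Several hosts had few reads, such as Ntaq1 (0 in NONO IP and 1 in Input, summed over replicates), Trmt10c (2 and 1) and Bud23 (3 and 2). The direction of such hosts is not separated from counting error. Pabpc4 and Phactr4 entered with more than 1 small RNA gene each. Of the 23 small RNA genes, 15 had fewer than 10 Input reads and entered through their NONO IP reads, while the hosts were not chosen in this way. The direction of the small RNA genes is therefore largely fixed by the choice, and these values are a description only. Eif4a1, a translation initiation factor gene with 20 and 14 reads in NONO IP and 18 and 10 in Input, contains the snoRNA gene LOC120095433, with 505 and 464 reads in NONO IP, against 84 and 83 reads in Input. For Khdc4 and Spaca6 such a pair could not be formed at this number of reads.

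**Figure D4:**
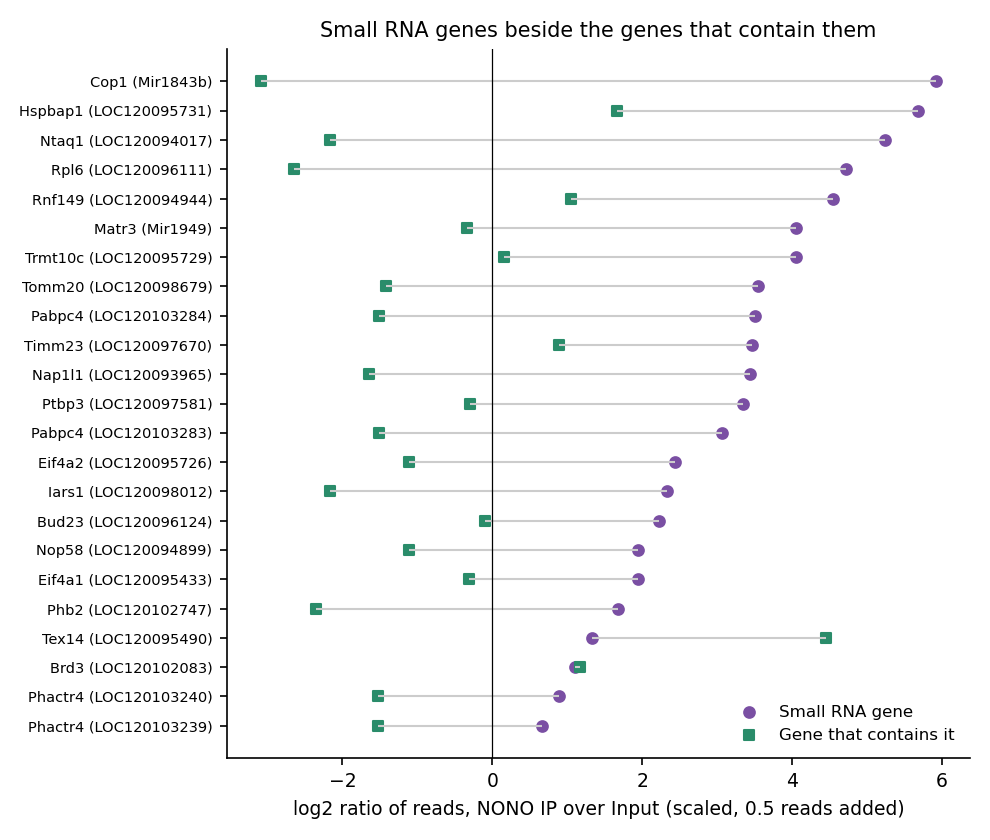
Log2 ratio of scaled reads, NONO IP over Input with 0.5 reads added, for 23 listed small RNA genes with at least 10 reads (circles) and the genes that contain them (squares). The circles all lie above 0, from 0.66, while the squares lie on both sides, with a median of −1.12. Several squares rest on few reads.

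Genes most like each member were taken by the distance between log2 TMM CPM profiles over the 4 libraries, each minus its own mean, among the 456 genes with a mean of at least 50 reads. Nearest to Khdc4 were LOC120093414, the scaRNA 13 gene (distance 0.63), with 841 and 559 reads in NONO IP, against 9 and 5 reads in Input, and the lncRNA LOC120097382 (0.80). They were followed by LOC120102039 (SNORA17, 1.12), LOC120095426 (scaRNA 16, 1.26), the lncRNA LOC120096952 (1.37) and Spaca6 (1.39). Over these libraries such a distance mainly reflects the size of the difference between NONO IP and Input, for which Khdc4 was chosen. The kind of gene among the nearest is therefore not read as a likeness.

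Nearest to Spaca6 was Smad1 (0.15), a transducer of BMP signals, with 242 and 199 reads in NONO IP, against 8 and 7 reads in Input. It was followed by the snoRNA genes LOC120102039 (SNORA17, 0.31) and LOC120099072 (SNORA38, 0.47), the lncRNA LOC120097118 (0.48), LOC120098619, annotated as an LSm7 protein (0.64), and the repressor gene Erf (0.65). With 4 libraries in 2 groups such a distance mainly reflects the size of the group difference.

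Genes related to the 2 by protein family or process were mostly not called or fell on both sides. Of 16 other KH-domain genes tested, 3 were higher and 2 lower by edgeR, with a median log2 fold change of −0.08. These were 18.75% and 12.5% of the genes in this list, against 29.8% and 26.9% of all tested genes. Fubp3, which binds single-stranded nucleic acids, had 58 and 41 reads in NONO IP, against 10 and 7 reads in Input (1.94, SE 0.34, edgeR adjusted p = 0.00012; 0.0517 and 0.0613 on the RPKM scales). Ankrd17 (0.88, SE 0.19) and Igf2bp2 (1.13, SE 0.39), which binds messenger RNAs, were the other higher members. Hdlbp, the KH-repeat protein vigilin, had 63 and 56 reads in NONO IP, against 117 and 115 reads in Input (−1.55, SE 0.16, edgeR adjusted p = 3.29e-07), and Pcbp4 changed by −1.62 (SE 0.46). The call of Ankrd17 ended on both RPKM scales (adjusted p = 0.543 and 0.494). That of Igf2bp2 ended there too (0.261 and 0.242), by DESeq2 (0.186), without NONO IP replicate 1 (0.0935) and without Input replicate 2 (0.115). That of Pcbp4 ended on log2(RPKM + 0.1) (0.0524), with no count filter (0.0609), by DESeq2 (0.123), without NONO IP replicate 1 (0.135) and without Input replicate 2 (0.171).

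Human KHDC4 is known to bind the PRP19 splicing complex. Of 14 genes of that complex 13 were listed and only Prpf19 was tested, with 9 and 6 reads in NONO IP, against 19 and 15 reads in Input (−1.75, SE 0.41, edgeR adjusted p = 0.00167). Of 16 other genes of sperm-egg fusion 5 were listed and only Cd81, a tetraspanin made by many cell types, was tested (−1.10, SE 0.20, edgeR adjusted p = 0.000144). Of 16 genes of miRNA processing or known regulation by let-7 and miR-125, 4 were tested, with 2 higher and none lower. The share higher was 50%, against 29.8% of all tested genes, but over only 4 genes. Hmga2, a classical let-7 target, had 50 and 47 reads in NONO IP, against 4 and 7 reads in Input (2.53, SE 0.37, edgeR adjusted p = 1.83e-05). Ago2, the slicing Argonaute, changed by 0.77 (SE 0.26, edgeR adjusted p = 0.0163), a call that ended by DESeq2 (adjusted p = 0.15), on the RPKM scales (0.794 and 0.776), without NONO IP replicate 1 (0.0573) and without Input replicate 2 (0.314).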

How the data were processed

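Per the file headers, the authors deposited unnormalised counts of reads on each gene and RPKM values, in which reads are divided by gene length and a library total; HISAT2, HOMER and the build mRatBN7.2 are named in the submitters' processing notes with no role or version. For the counter, its strand setting and its handling of overlapping genes, the sources used here give nothing, so reads shared by a host and a small RNA inside it are uncertain. Per the labels' protocols, polyadenylated RNA was captured and a stranded kit used. Counts were tested with edgeR 4.0.16 (R 4.3.3, quasi-likelihood, TMM, filterByExpr, Benjamini-Hochberg, threshold 0.05), checked on simulated data. The filter kept 2920 of 13731 genes, with 91.1% of reads and at least 23 reads each. SE is the log2 fold change over the root of F. Replicates differed by a chi-square per degree of freedom of 1.42 in NONO IP and 1.12 in Input, where 1 is sampling noise. Alternatives used DESeq2 1.42.0, limma 3.58.1 on log2(RPKM + 1) and log2(RPKM + 0.1), other filters and scalings, a replicate block and leaving out libraries. Symbols were matched to the RefSeq GRCr8 gene table (91.6%), which gives no strand and was used for names, lengths and containment. The 2 genes and all lists were chosen with earlier results of these data known. Genes named from a list are up to 4 called members per direction with the smallest adjusted p, beside neighbours, contained genes and the 6 nearest profiles; others, such as the host and small RNA pairs, were chosen after their values were seen.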

Additional observations from a re-analysis of the deposited data

How the results depend on the processing

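Khdc4 and Spaca6 stayed higher in NONO IP under every alternative run. Their log2 fold changes were 6.49 and 4.69 with library totals, 6.25 and 4.45 with no count filter, 4.81 and 3.13 on log2(RPKM + 1), and 5.34 and 3.52 on log2(RPKM + 0.1). Leaving out 1 library gave 5.99 to 6.15 for Khdc4 and 4.14 to 4.30 for Spaca6. The median of all tested genes moved too, to 0.48 with library totals on the same genes (0.02 with TMM) and to −0.61 and −0.82 on the RPKM scales, where other genes were tested (7576) by another method. Over 2889 genes tested on all these scales it was near 0 with TMM, 0.46 with library totals and −0.54 and −0.63 on the RPKM scales. Relative to the median of the genes tested under each setting, Khdc4 lay between 5.42 and 6.16 and Spaca6 between 3.74 and 4.35 over all alternatives. The median of genes with a small RNA gene inside, both members included, was −0.29; it turned to 0.17 with library totals, still 0.32 below the median of all genes, and was −0.80 and −1.02 on the RPKM scales. Without 1 library it lay between −0.41 and −0.18.

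Calls over all genes were 871 higher and 786 lower. They were 453 and 423 by DESeq2, 254 and 247 with at least 50 counts in 2 libraries (600 genes), 393 and 1425 on log2(RPKM + 1), 348 and 1143 on log2(RPKM + 0.1), and 1219 and 444 with library totals. Higher genes were thus 52.6% of calls with TMM, 73.3% with library totals and 21.6% and 23.3% on the RPKM scales. Without 1 library there were 679 to 810 higher and 615 to 705 lower. With the replicate block, 870 were higher and 806 lower, and it changed no call of a named gene. Same-numbered libraries share only a number, with a correlation of deviations of 0.05. Of the 36 genes named from lists, none turned direction, and 19 lost the call under at least 1 alternative, most often on the RPKM scales (15 and 16 genes); the cause was not tested. The ratio of Khdc4 is limited by its 3 reads in each Input library.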
